A study of Mus musculus with 3 samples.

Results

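The m5C sites described here lay within 10 nt of another m5C site of the same transcript strand in mouse oocytes or 1-cell embryos. A site was taken when another called site of the same library lay on the same chromosome and strand at a distance of 1 to 10 nt. The members were therefore selected on measured values, since a site was listed only when its level and coverage had passed the limits of the calling. There were 1013 such sites among 15910 in germinal vesicle (GV) oocytes, 1512 among 20694 in metaphase II (MII) oocytes and 2413 among 24996 in the 1-cell embryo, which were 3586 distinct positions of 40298. RNA bisulfite sequencing had been carried out on 1 library of each stage from wild type C57BL/6J mice, with females aged 7 to 8 weeks. GV oocytes, which are full-grown and arrested in the first meiotic prophase, were taken 48 h after 10 IU of the gonadotrophin of pregnant mare serum (PMSG). MII oocytes, which are mature and unfertilized, were taken 12 h after 5 IU of human chorionic gonadotrophin (hCG) that followed 10 IU of PMSG. The 1-cell embryos were taken 24 h after 5 IU of hCG that followed 5 IU of PMSG, in females mated with males of the same strain. The number of cells and animals behind each library is not given in the sources used here. These ages and doses are as labelled, and the methods of the study give some of them otherwise. The conversion text of the labels also differed between the oocyte libraries and the embryo library, so that batch and stage of a library cannot be told apart. With 1 library a stage there was no replicate check, and the tests and intervals below cover the counting of reads in these libraries alone.

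Bisulfite turns cytosine into uracil, while 5-methylcytosine (m5C) resists it, so the share of reads with an unconverted C gives the m5C level of a position. In messenger RNA most m5C is laid down by NSUN2 at sites that are followed by several G at the base of a small stem-loop (Type I), and some by NSUN6 at the first C of the motif CUCNA (Type II). Oocytes and early embryos live on maternal mRNA, since transcription ceases in the full-grown oocyte and resumes only after fertilization. Sites that are neighbours are covered largely by the same reads, and here the larger coverage of a pair was a median of 1.02 times the smaller at each stage, so that their reads are not independent. The study also removed reads with many unconverted C, a step that acts on neighbouring sites more than on lone ones, and its part in the levels was not tested.

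Oocyte markers were seen in the lists as named genes with a called site. Of 11 oocyte markers 6, 8 and 11 had a called site in GV oocytes, MII oocytes and the embryo. Of 10 granulosa and cumulus cell markers 0, 2 and 0 had one, and of 6 sperm markers 1, 1 and 0. None of these marker genes held closely spaced sites. A list of called sites shows only genes that had a site, and it does not measure RNA levels. Median coverage of the closely spaced sites was 131, 114 and 66 reads in GV oocytes, MII oocytes and the embryo, against 120, 106 and 57 at the other sites.

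The sequences below carry the patterns described in the text. They were read from GRCm38 in the sense of the transcript, 5′ to 3′, over 30 nt, and the capitals mark the called, closely spaced C. The first set holds runs and chains of 3 or more sites.
Golph3, chr15:12321746-12321750, plus strand, coding sequence: gaccucgcugacCCagCggagcucgggccu
Ppp6r1, chr7:4640174-4640176, minus strand, coding sequence: agucuggagggggCCCaaggaaaggcuaca
Brdt, chr5:107359941-107359947, plus strand, coding sequence: ggguccgcgagCagCagCagcgacucgagc
Rapgefl1, chr11:98851968-98851986, plus strand, 3′ UTR: augcuCagggaaaCagggaaaCgCaggccu
Parg, chr14:32202331-32202342, plus strand, coding sequence: ccucggacuCCCggagcuucCcuggcaggc
Fam8a1, chr13:46669784-46669798, plus strand, coding sequence: ccgcaagCgCcgggagaCgggCgcggagcc

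The second set holds pairs whose levels were far apart, with the high site at the 5′ C in Yap1, Tet3, Arid1b and Cpeb3 and at the 3′ C in Taf3.
Yap1, chr9:8004319-8004320, minus strand, coding sequence: guccgugucuccggCCgggacccccgcggc
Tet3, chr6:83368813-83368814, minus strand, coding sequence: augggggaugggaaCCggggauuucaaccc
Arid1b, chr17:4995476-4995477, plus strand, coding sequence: cucugcugagcaaaCCgggcgacgaggacg
Cpeb3, chr19:37068174-37068175, minus strand, coding sequence: ccaucaaggauaaaCCggugcaaauccgac
Taf3, chr2:10048346-10048347, minus strand, coding sequence: guggcgcagaucugCCaggcgcugggcugg

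The third set holds pairs that had close levels in an oocyte and unequal levels in the embryo (Uhrf1, Ddhd1, Foxn2), a deeply covered pair that lay 8 nt apart (Lsm14b), and a pair of which 1 site changed between the oocyte stages (Emilin2).
Uhrf1, chr17:56322905-56322906, plus strand, 3′ UTR: cugugugcuucauuCCagggguggccccug
Ddhd1, chr14:45657323-45657324, minus strand, coding sequence: cggcggggccugagCCggagauggaggagc
Foxn2, chr17:88486694-88486701, plus strand, coding sequence: ggagacggaugCggaggaCgaggaggaucc
Lsm14b, chr2:180025126-180025134, plus strand, 5′ UTR: caccgcgcggCagcggagCgggcggggccc
Emilin2, chr17:71273477-71273478, minus strand, coding sequence: gcucaaaucgcacuCCagagacaucucugg

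Closely spaced sites made up 6.37% of the called sites in GV oocytes (exact 95% binomial interval 5.99 to 6.76), 7.31% in MII oocytes (6.96 to 7.67) and 9.65% in the 1-cell embryo (9.29 to 10). Their number rests on how many sites each list held, so the 3 shares are given as descriptions of the libraries. Most members came as simple pairs. In GV oocytes 481 of 498 chains, a chain being sites linked by gaps of at most 10 nt, had 2 sites, and 17 had 3. MII oocytes had 715 chains of 2 sites, 26 of 3 and 1 of 4. The embryo had 1108 chains of 2 sites, 59 of 3 and 5 of 4. Every consecutive pair, 515 in GV oocytes, 770 in MII oocytes and 1241 in the embryo, lay within 1 gene.

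The neighbour was most often the very next base in the oocytes. The nearest called neighbour lay at 1 nt for 65% of the members in GV oocytes, 63.6% in MII oocytes and 40.7% in the embryo. Set against the C that were there to be called, the preference for the next base was seen at all stages. Of the C that directly followed a called site, 15.9% of 2090 were themselves called in GV oocytes, 17.4% of 2792 in MII oocytes and 12% of 4124 in the embryo. At 2 nt the share was 2.36%, 3.46% and 3.9% in the same order. At 3 to 10 nt it was 0.513%, 0.588% and 1.4%, close to the 0.469%, 0.597% and 1.18% at 11 to 50 nt. At 5 to 10 nt it was 0.466% (exact 95% interval 0.387 to 0.557) in GV oocytes and 0.535% (0.46 to 0.619) in MII oocytes, intervals that overlap those at 11 to 50 nt, and 1.38% (1.27 to 1.5) in the embryo, above the 1.14 to 1.22 of its further sites. At 3 nt it was 0.84% (0.514 to 1.29) in GV oocytes and 1.06% (0.729 to 1.5) in MII oocytes, above the 0.439 to 0.501 and 0.567 to 0.628 at 11 to 50 nt, and 1.46% (1.12 to 1.87) in the embryo. The excess of called neighbours was thus largest at 1 nt and smaller at 2 nt, was small at 3 nt in the oocytes, and was small over 5 to 10 nt in the embryo. In the embryo the pairs at 3 to 10 nt were 635 of 1241, against 145 of 515 in GV oocytes and 215 of 770 in MII oocytes. A C that was not listed can be unmethylated, below the limits or not covered, which the lists do not tell apart.

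**Figure D1:**
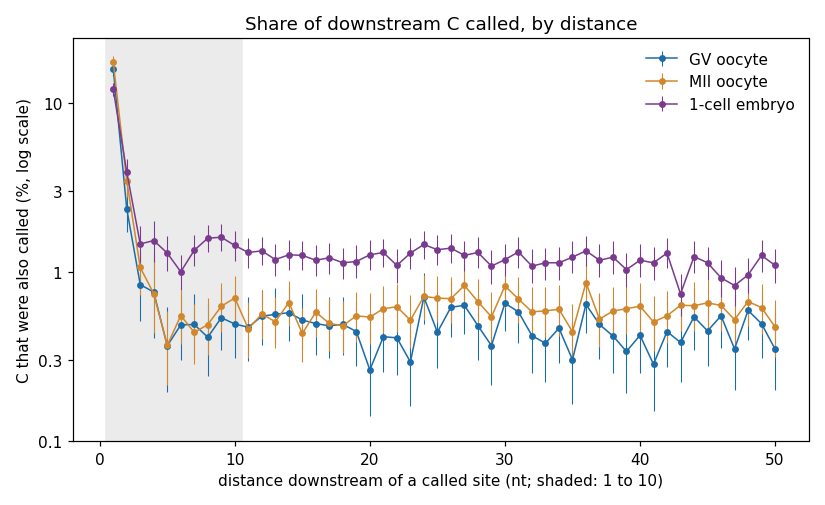
Share of the C at each distance downstream of a called site that were called too (percent, log scale), against the distance in nt, with exact 95% binomial intervals, for the 3 libraries. The share was 15.9%, 17.4% and 12% at 1 nt and fell to a flat level after the first few bases, which was higher in the 1-cell embryo than in the oocytes.

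The limit of 10 nt did not mark a step. In GV oocytes 24 pairs lay at 9 nt, 22 at 10 nt, 23 at 11 nt and 30 at 12 nt, with median absolute level differences of 11.1, 8.69, 8.67 and 10.7 percentage points. In MII oocytes the pairs at these distances numbered 37, 39, 29 and 38, with medians of 13.4, 13.2, 13 and 13.3 points. In the embryo they numbered 108, 90, 87 and 98, with medians of 12.8, 9.95, 12.9 and 8.72 points.

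Neighbouring sites often had unequal levels. By Fisher's exact test on the unconverted and converted reads of both sites, 258 of 515 pairs at 1 to 10 nt differed in GV oocytes (50.1%), 373 of 770 in MII oocytes (48.4%) and 489 of 1241 in the embryo (39.4%), at an adjusted p under 0.05. Over all consecutive pairs up to 100 nt apart, which were tested together, 49.1% differed in GV oocytes, 49.1% in MII oocytes and 36.9% in the embryo. The share of closely spaced pairs with unequal levels was thus near that of pairs in general. The 3 stages differed in depth, with a median of 129, 112 and 63 reads at the less covered site of a close pair. With reads thinned to 20 per site the shares were 13.8%, 11.6% and 16.1%. The lower share in the embryo did not hold at this equal depth. The median absolute difference was 12 points in GV oocytes, 13 in MII oocytes and 12.2 in the embryo, against 11.6, 11.9 and 11.4 points for pairs at 11 to 100 nt. Adjacent C were no more alike than this, with 165 of 332, 246 of 486 and 238 of 496 pairs called different and medians of 12.5, 14 and 16.1 points. Embryo pairs at 3 to 10 nt differed in 203 of 635 cases (32%, exact 95% interval 28.4 to 35.8), with a median of 9.01 points. Adjacent C of the embryo differed in 48% of cases (43.5 to 52.5), above the 36.2% (34.8 to 37.6) at 11 to 100 nt. The less covered site had a median of 69 reads in these adjacent pairs and 57 at 11 to 100 nt. In the oocytes adjacent C differed in 49.7% and 50.6%, near the 48.8% and 49.4% at 11 to 100 nt. Across pairs at 1 to 10 nt, Pearson's r between the levels of the 5′ and 3′ site was 0.142 (515 pairs), 0.132 (770 pairs) and 0.192 (1241 pairs). At 11 to 100 nt it was 0.038 (1403 pairs), -0.004 (2336 pairs) and 0.128 (4623 pairs). By this measure close neighbours were weakly correlated, and more so than further ones. Both levels of a close pair come from largely the same reads, and none lies under 10%.

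A high level at both neighbours was rare. Single members reached 50% in only 15%, 16.2% and 19.1% of cases in GV oocytes, MII oocytes and the embryo. Pairs with both sites this high would thus be few even if the levels of neighbours were unrelated. Their rarity does not show that neighbours exclude each other. Both sites reached 50% in 16 of 515 pairs in GV oocytes (3.11%, exact 95% interval 1.79 to 5), 35 of 770 in MII oocytes (4.55%, 3.19 to 6.27) and 75 of 1241 in the embryo (6.04%, 4.78 to 7.52). Only 1 of the sites reached it in 123, 182 and 327 pairs. The lower site of the pair was under 20% in 351 of 515, 506 of 770 and 727 of 1241 pairs. At 11 to 100 nt it was rarer still. Both sites reached 50% in 1.85% of 1403 pairs (1.21 to 2.7), 1.24% of 2336 (0.833 to 1.78) and 3.2% of 4623 (2.71 to 3.75). These intervals overlap those of the close pairs in GV oocytes and lie below them in MII oocytes and the embryo. In the embryo 66 of the close pairs had a site at 100%, and in 5 of these both sites were at 100%. No oocyte pair at 1 to 10 nt had a site at 100%. This was a trait of the lists in general. In the embryo 150 of 4623 pairs at 11 to 100 nt had a site at 100%. Single sites at 100% numbered 551 of 24996 in the embryo, 68 of them among its 2413 members. In the oocyte lists they numbered 2 of 15910 and 8 of 20694.

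**Figure D2:**
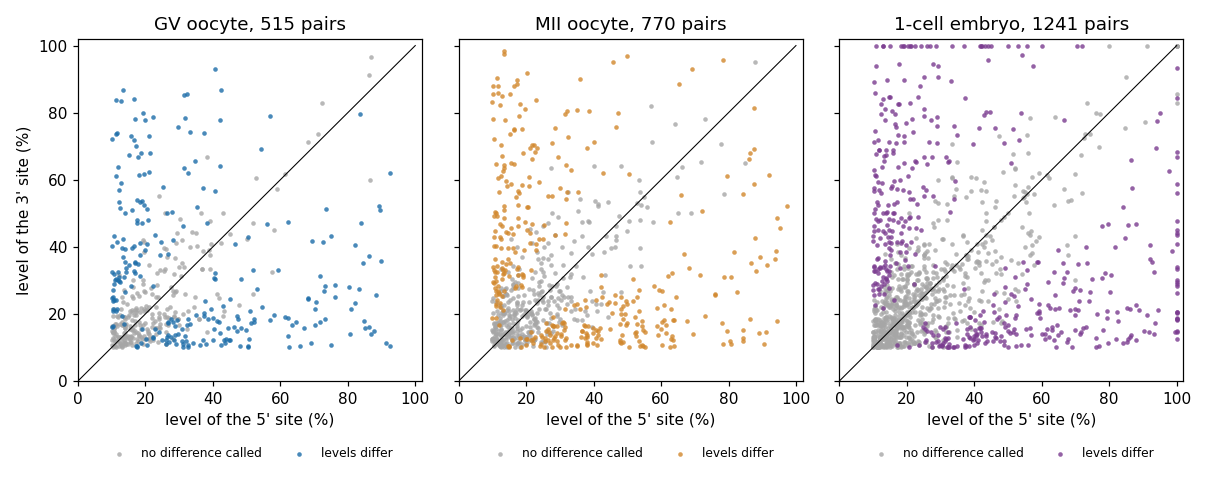
Level of the 3′ site against that of the 5′ site (percent) for every pair at 1 to 10 nt in the 3 libraries, coloured where Fisher's exact test called the levels different and with a line of equal levels. The points lie along the axes more than along the line, with both sites at or above 50% in 16, 35 and 75 pairs, and those at exactly 100% belong to the 1-cell embryo. Most single sites lay under 50% at each stage.

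Where both C of a CC dinucleotide were called, neither position was the higher in general. Where 1 C alone was called, it was more often the 3′ C. This was so in 3752 CC against 1758 with the 5′ C in GV oocytes, 4865 against 2306 in MII oocytes and 6006 against 3628 in the embryo. Among adjacent C with a called difference, the 5′ C was higher in 95 pairs and the 3′ C in 70 in GV oocytes, in 133 and 113 in MII oocytes, and in 116 and 122 in the embryo. The pairs with the largest differences among those with at least 100 reads at each site show both orders, and since they were chosen for the difference no test is given for them. In Arid1b, a subunit of the BAF chromatin remodeler, the 5′ C was at 92.5% of 267 reads and the next C at 10.5% of 258 in GV oocytes, 90.5% and 11.1% in MII oocytes, and 86.3% and 21.6% of 51 reads each in the embryo. Fam122a had 91.4% and 11.3% in GV oocytes, 88.9% and 14.4% in MII oocytes and 85.4% and 21.7% in the embryo. Cpeb3, a member of the family that binds cytoplasmic polyadenylation elements, had 87% and 13.9%, then 94.3% and 17.8%, then 100% and 20.4%. In these 3 genes the 5′ C was the high one at every stage, by 63.7 points or more.

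Taf3, a subunit of the general factor TFIID, had the opposite order, with 11.5% at the 5′ C and 90.2% at the 3′ C in MII oocytes and 13% and 100% in the embryo. In GV oocytes only its 3′ C was listed, at 87.4%. In Ranbp3, which acts in nuclear export, the embryo had 10.8% of 436 reads at the 5′ C and 93.8% of 432 at the 3′ C, and the oocyte lists held only the 3′ C, at 73.3% and 84.7%. Nfya, the A subunit of the CCAAT-binding factor NF-Y, and 1500011B03Rik had pairs in the embryo in their 3′ UTR, at distances of 2 and 8 nt, in which the 5′ site was the high one. The Nfya sites were at 99.5% and 14.5%, and those of 1500011B03Rik at 100% and 12.4%. In both genes the oocyte lists held the high site alone, which was at 49.8% and 69.4% in Nfya and at 67.4% and 83.1% in 1500011B03Rik in GV and MII oocytes.

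Other deeply covered pairs had nearly equal levels, and these too were chosen for their values. In GV oocytes Eif5, a factor of translation initiation, had 11.5% at both sites 7 nt apart in its 5′ UTR, Foxn2, a forkhead factor, had 16.1% and 15.8%, and Fam193a had 11.1% and 11.9%. In MII oocytes Ddhd1, a phospholipase, had 52.8% and 53.1% at adjacent C, Hnrnpul2 had 27.8% and 28.2% at sites 5 nt apart, and Sall4, a zinc finger factor of early embryos, had 11.9% and 11.4%. In the embryo Kcmf1 had 11.3% and 10.2%, Cit, the citron kinase, 13.5% and 16%, and Atmin 19.6% and 22.9%. All of these but the Ddhd1 pair had both sites under 30% at that stage.

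The pairs with the deepest coverage at all stages kept their order of levels. Yap1, the coactivator of the Hippo pathway, had 75.1% of 2779 reads at the 5′ C and 43.3% of 2724 at the next C in GV oocytes, 84.2% and 55.8% in MII oocytes and 86.6% and 66% in the embryo. By Fisher's exact test the 2 sites of Yap1 differed at each stage, with adjusted p of 1.56e-127, 1.74e-134 and 1.43e-30. Rnf114, a ubiquitin ligase, had 22.8% and 15.4% at adjacent C of its 3′ UTR in GV oocytes, 31.5% and 21.4% in MII oocytes and 36.8% and 27.5% in the embryo, with adjusted p of 6e-12, 1.54e-14 and 8.55e-06 by the same exact test. In Lsm14b, an RNA-binding protein of repressed mRNPs, sites 8 nt apart in the 5′ UTR were at 18.5% and 20.5% in GV oocytes, 20.9% and 23.5% in MII oocytes and 22.2% and 28.8% in the embryo. The difference in Lsm14b passed Fisher's exact test in the embryo (adjusted p = 0.0075) and missed it in the oocytes (adjusted p = 0.149 and 0.0734).

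Chains of 3 or 4 sites showed both patterns. Golph3, a Golgi phosphoprotein, held 3 sites within 5 nt, at 13.7%, 16.9% and 35.6% from 5′ to 3′ in GV oocytes, 18.6%, 28.6% and 43.6% in MII oocytes and 28.4%, 34.2% and 59.6% in the embryo, with 997 to 1985 reads each. Its levels rose from 5′ to 3′ at every stage, and both steps passed Fisher's exact test at each stage, with adjusted p of 0.0129 and 2.43e-39 in GV oocytes, 1.91e-12 and 9.33e-21 in MII oocytes and 0.0165 and 8.09e-29 in the embryo. In Ppp6r1, a regulatory subunit of protein phosphatase 6, 3 C in a row were at 16.1%, 15.6% and 13.3% in GV oocytes, 21.8%, 20.1% and 20.8% in MII oocytes and 25.7%, 24.7% and 26% in the embryo. No step in Ppp6r1 passed the exact test at any stage, the lowest adjusted p being 0.483. Runs of 3 called C in a row numbered 6 in GV oocytes, 10 in MII oocytes and 11 in the embryo. Brdt, a bromodomain protein of the germ line, held 3 sites at steps of 3 nt in a CAG repeat. They were at 12.7%, 59.1% and 57.1% in GV oocytes, 16.3%, 64.7% and 60.7% in MII oocytes and 53.1%, 100% and 84.5% in the embryo, where 63 to 71 reads covered them. The first step of Brdt passed Fisher's exact test at all stages, with adjusted p of 3.09e-34, 1.38e-27 and 2.15e-10, and the second passed it in the embryo (adjusted p = 0.801, 0.534 and 0.00291 at the 3 stages).

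MII oocytes held a chain of 4 sites in the 3′ UTR of Rapgefl1, at 63.2%, 13.4%, 97.4% and 52.3% from 5′ to 3′ over 111 to 163 reads. In GV oocytes all but the second of these were listed, at 63.5%, 82.2% and 40.6%, and in the embryo the first and second, at 100% and 29.4% of 40 and 34 reads. In Hnrnpul2, an RNA-binding protein, 3 sites over 15 nt were at 10.7%, 27.8% and 28.2% in MII oocytes and 11.7%, 68.8% and 54.1% in the embryo. Chains of 4 in the embryo were seen in Fam8a1 (17.3%, 10.1%, 14.7% and 27.7%), in Esyt1, a tether between the endoplasmic reticulum and the plasma membrane (33.8%, 20.3%, 31.7% and 14.5%), and in Parg, the glycohydrolase of poly(ADP-ribose) (50.9%, 25.9%, 21.8% and 25.9%). The embryo chains rest on 226 to 232 reads in Fam8a1, 60 to 69 in Esyt1 and 53 to 55 in Parg. None of the 4 Parg sites was in an oocyte list.

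**Figure D3:**
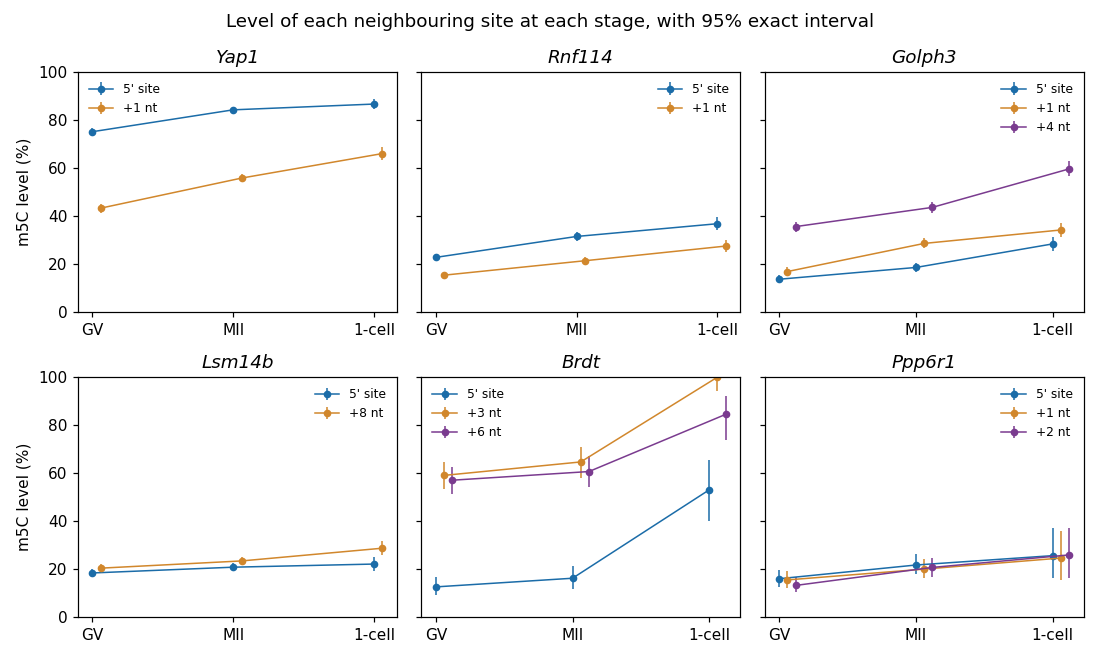
m5C level (percent) with its exact 95% binomial interval at each site of 6 pairs or chains in GV oocytes, MII oocytes and the embryo, each line being 1 site and the legend its distance from the 5′ site. The sites of Yap1, Rnf114 and Golph3 kept apart in the same order at all stages, and the 3 adjacent C of Ppp6r1 lay on each other.

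The order of levels within a pair was nearly fixed between the oocyte stages. Of 412 pairs consecutive in both GV and MII oocytes, 222 differed in GV oocytes, and 218 of these (98.2%) had the same site higher in MII oocytes. In 182 pairs the levels differed at both stages, and all 182 had the same order. Across the 412 pairs the difference between 5′ and 3′ level had r = 0.922 between the stages. Between MII oocytes and the embryo 259 pairs were shared, and 138 of the 165 that differed in MII oocytes (83.6%) kept their order. The levels differed at both stages in 117 pairs, with 113 in the same order and 4 in the opposite one, and r was 0.763. Between GV oocytes and the embryo 195 pairs were shared, 99 of 120 kept their order (82.5%), and of 80 that differed at both stages 75 had the same and 5 the opposite order (r = 0.689). Pairs at 11 to 100 nt kept their order in 97.5%, 85.1% and 85.4% of cases, so this was no property of close pairs alone. At all 3 stages 186 pairs in 175 genes were listed, 125 of them with the same order throughout (67.2%), and of 70 with a called difference at every stage 67 had 1 order. A pair with a difference near 0 can turn its order through counting error.

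**Figure D4:**
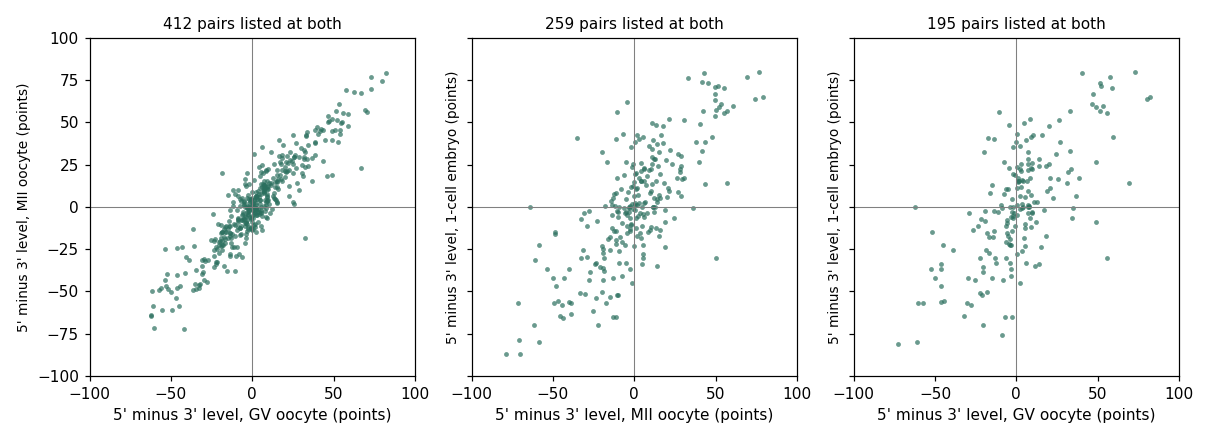
Level of the 5′ site minus that of the 3′ site (percentage points) at a later stage against the same difference at an earlier stage, for the pairs at 1 to 10 nt listed at both. The 412 pairs of the oocyte stages lie near a line through 0, and the 259 and 195 pairs shared with the 1-cell embryo scatter more widely.

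Many pairs were pairs at 1 stage only, because a neighbour was missing from the other list. Of the 770 pairs of MII oocytes, 412 had both sites in the GV list (53.5%), 263 had 1 of them (34.2%) and 95 neither (12.3%). In the other direction 413 of 515 pairs of GV oocytes were in the MII list in full (80.2%). Of the 1241 pairs of the embryo, 259 were in the MII list in full (20.9%), 466 with 1 site (37.6%) and 516 with none (41.6%). Adjacent C of the embryo were found in full in MII oocytes in 35.3% of 496 cases, and pairs at 3 to 10 nt in 10.4% of 635. Of the pairs in MII oocytes 380 of 770 had neither site in the embryo list (49.4%). Sites in general were often missing from the other list as well. Of all 20694 sites of MII oocytes, 12954 were in the GV list and 8015 in the embryo list. Of all 24996 sites of the embryo, 8015 were in the MII list. Missing neighbours are thus no trait of close pairs alone. The embryo list had fewer reads per site, with 33.7% of its closely spaced sites under 50 reads against 16.1% in GV oocytes and 17.8% in MII oocytes, and the part of depth in the missing sites was not tested.

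Levels of closely spaced sites were higher at later stages, as they were at all shared sites. For each site listed at both stages, Fisher's exact test compared its reads in the 2 libraries. From GV to MII oocytes 149 of 815 sites that were closely spaced at both stages were higher (18.3%), where 19.6% of all 12954 shared sites were, and 13 were lower (1.6%), where 0.965% were. From MII oocytes to embryo 239 of 518 were higher (46.1%, against 51.3% of all shared sites) and 14 lower (2.7%, against 2.45%). From GV oocytes to embryo 249 of 392 were higher (63.5%, against 66.1%) and 3 lower (0.765%, against 1.05%). These shares are near those of all shared sites. The median change was 4.89, 9.91 and 15.5 points in the 3 comparisons, against 4.87, 12.7 and 19.2 points over all shared sites. The comparisons share libraries with each other, and a change between libraries compares these libraries, not the stages.

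In some pairs the sites moved by unequal amounts, which are given as values. The sites named here were chosen as those with the largest changes, so no test is given for them, and the adjusted p given belong to their neighbours. In Emilin2, a glycoprotein of the extracellular matrix, the 3′ C went from 37.4% (187 reads) in GV oocytes to 67.9% (162 reads) in MII oocytes and 100% of 22 in the embryo. The 5′ C beside it was at 86.2%, 86.5% and 91.3%, which was no called change between the oocytes (Fisher's exact test, adjusted p = 1). In Zfhx3, a homeobox factor, 1 C went from 30.8% to 58.7% and the next from 11.9% to 21.9% (exact test, adjusted p = 0.159). Tmed2, which sorts cargo between the endoplasmic reticulum and the Golgi, held a pair that was lower at both C in MII oocytes, at 54.6% after 73.3% and 15.1% after 28.4%. From MII oocytes to embryo the 3′ C of Epb41, the membrane skeleton protein 4.1, went from 39.7% to 82.8% while the 5′ C was at 14.6% and 20.9% (exact test, adjusted p = 0.185). In Slc23a2, a vitamin C transporter, the 3′ C went from 30.1% and 35.3% in the oocytes to 77.7% in the embryo, and its 5′ neighbour was at 11.8%, 15.2% and 27.2%. The neighbour in Slc23a2 was also called higher in the embryo, at adjusted p = 0.00982 against MII oocytes and 0.000364 against GV oocytes by the exact test.

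Falls were fewer. In Ndfip2, an adaptor of Nedd4 ubiquitin ligases, the 5′ of sites 3 nt apart went from 52.2% and 54.3% in the oocytes to 33.1% in the embryo. Its 3′ neighbour went from 17.6% and 18% to 33.6%, higher by Fisher's exact test (adjusted p = 0.000454 against MII oocytes). In Hip1r, which joins clathrin coats to actin, the 3′ of sites 6 nt apart went from 35.1% in MII oocytes to 19.6% in the embryo, and the 5′ site from 86.6% to 91.2% (exact test, adjusted p = 0.291).

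Closely spaced sites had somewhat other surroundings than the other sites of the same list. They lay in a 5′ UTR in 19.2%, 18.1% and 18.5% of cases in GV oocytes, MII oocytes and the embryo, against 10.6%, 10.8% and 9.38% of the other sites. The exact 95% intervals were 16.8 to 21.7, 16.2 to 20.2 and 17 to 20.1 for the members and 10.1 to 11.1, 10.3 to 11.2 and 9.01 to 9.77 for the others. Coding sequence held 63.3%, 64.5% and 67.7% of members and 68.4%, 68.9% and 73.8% of the others. The rest lay mostly in 3′ UTRs, with 15.8%, 15.4% and 11.9% of members and 18.9%, 18.3% and 14.9% of the others. Sites are not independent where they share a transcript, so these intervals are too narrow. The median level was 21.6%, 22.8% and 24.1% at members and 19.4%, 19.5% and 23.8% at the others. The unconverted share that the deposited p-values imply for the gene background had a median of 0.349%, 0.462% and 0.522% at members and 0.289%, 0.394% and 0.42% at the others, and its part in the calls was not tested.

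Type II sites were fewer among the members, in part because of the sequence of adjacent C. The motif CUCNA, read on the transcript strand with the site at its first C, was found at 14 of 1013 members in GV oocytes (1.38%), 22 of 1512 in MII oocytes (1.46%) and 51 of 2413 in the embryo (2.11%), against 6.22%, 5.31% and 3.58% of the other sites. Among adjacent C none of 658, 962 and 981 sites had it. The 5′ C of a CC cannot have the motif, since its next base is C and not U. For these sites the absence was fixed in advance, and it lowers the share over all members. Members without an adjacent called C had the motif in 3.94% (exact 95% interval 2.17 to 6.53), 4% (2.52 to 5.99) and 3.56% (2.66 to 4.66) of cases. These intervals overlap those of the other sites, which were 5.83 to 6.62, 5 to 5.64 and 3.34 to 3.83.

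CC dinucleotides with both C called stood in a narrower context than those with 1 called C. In GV oocytes 332 CC had both C called, 1758 the 5′ C alone and 3752 the 3′ C alone. In MII oocytes these were 486, 2306 and 4865, and in the embryo 496, 3628 and 6006. The letters CCAGG or CCGGG, read from the 5′ C on the transcript strand and exclusive of each other, were found at 46.4% of CC with both called in GV oocytes, 46.9% in MII oocytes and 41.1% in the embryo. With the 5′ C alone called they were found at 30%, 29.2% and 21.6%, and with the 3′ C alone at 32.3%, 32% and 24.1%. Of all CC in the listed transcripts, 1712011 in GV oocytes, 4.23% were followed in this way, and 4.21% and 4.18% of those at the later stages. The exact 95% intervals of CC with both called, 40.9 to 51.9, 42.4 to 51.5 and 36.8 to 45.6, lay above those of both other classes at each stage. A G stood at the second base after the CC in 80.7%, 80% and 74% of CC with both called. Of the sequences printed above with a called CC, those of Arid1b, Tet3, Yap1, Taf3 and Uhrf1 hold these letters there. Those of Cpeb3, Emilin2, Ddhd1, Golph3, Ppp6r1 and Parg do not.

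Predicted folds placed CC with both called at the 5′ edge of a paired stretch. In folds of the transcript around each site at 37 °C, the 5′ C was paired in 57.7%, 51.8% and 55.5% of CC with both called in GV oocytes, MII oocytes and the embryo. Pairing rose to 84%, 85% and 79.5% at the base 3 nt after it and was 81.9%, 82.1% and 79.9% at 4 nt. It was 40.5%, 40.3% and 46.1% at the second base before it. With the 5′ C alone called the peak was 76.7%, 76.4% and 70% at 3 nt, and with the 3′ C alone 75.2%, 74% and 69.5% at 4 nt, which is the same place when counted from the called C. In GV oocytes the 5′ C was paired in 60% of the pairs in which it was the higher site (exact 95% interval 49.4 to 69.9) and in 45.7% of those in which it was the lower (33.7 to 58.1), intervals that overlap. In MII oocytes these shares were 51.1% and 54%, and in the embryo 56.9% (47.4 to 66.1) and 52.1% (42.8 to 61.3), also with intervals that overlap. A predicted fold of naked RNA does not show the structure in the cell.

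**Figure D5:**
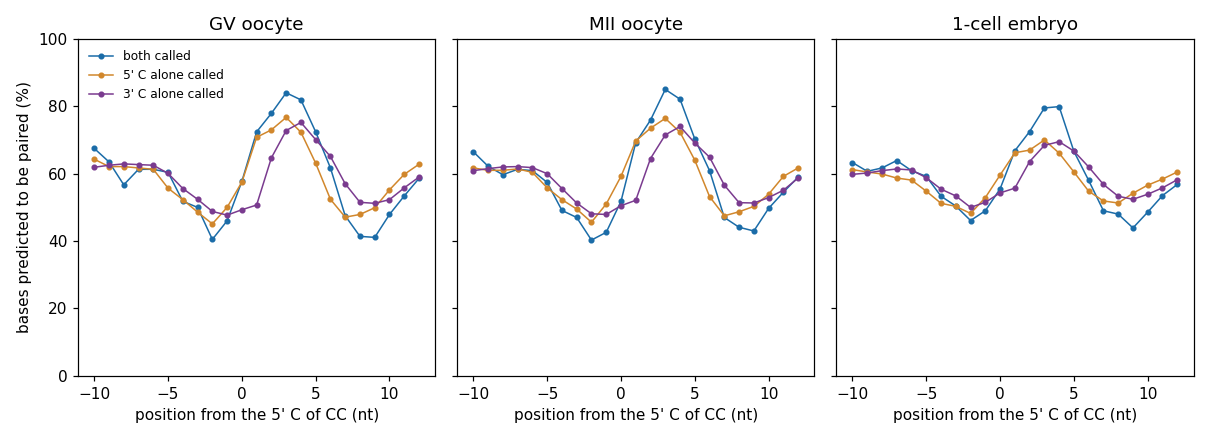
Share of bases predicted to be paired (percent) by position from the 5′ C of a CC dinucleotide (nt), for CC with both C called, the 5′ C alone or the 3′ C alone, in the 3 libraries. CC with both called reach 84%, 85% and 79.5% at position 3, above both other classes.

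Closely spaced sites were found in 468 of 6108 genes with a called site in GV oocytes (7.66%), 670 of 6736 in MII oocytes (9.95%) and 989 of 6407 in the embryo (15.4%). In 424, 582 and 798 of these genes there were 2 such sites, and in 28, 65 and 153 there were 4 or more. Mn1, a transcriptional coactivator, was among the genes with the most at each stage, with 6, 11 and 10. In GV oocytes it was joined by Khsrp (6), an RNA-binding protein of splicing and mRNA decay, and Brdt (5). Among the genes with 4 such sites there, Tet3 and Igsf3 were taken for the highest summed coverage. In MII oocytes Sall4, Gse1, Zfhx3, Wiz and Rrp9 had 6 each. In the embryo Gse1 had 10, Myo19, a mitochondrial myosin, 8, Gpr137 8 and Gbf1, an exchange factor of Arf GTPases, 7, as did Abhd16a, Arf6, Espl1 and Sart3. These genes also had many called sites in all, such as 19, 30 and 29 in Mn1 and 39 in Gse1 of the embryo. All 5 called sites of Brdt in GV oocytes were closely spaced.

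Mn1 shows how far neighbours in 1 transcript can differ. Adjacent C of its coding sequence were at 21.2% and 72.9% in GV oocytes, 32% and 80.6% in MII oocytes and 63.8% and 78.7% in the embryo, with 170, 150 and 47 reads at the 5′ C. In its 3′ UTR 3 C in a row were at 16.3%, 87.8% and 42.6% in MII oocytes over 47 to 49 reads, of which the last 2 were listed in GV oocytes at 56.9% and 18.3%. In Sall4 adjacent C were at 31.6% and 78.3% in GV oocytes, 36.1% and 89.9% in MII oocytes and 57.3% and 94% in the embryo, with 164 to 1444 reads. In Zfhx3 a second pair was at 48.4% and 30.3% in GV oocytes, 66.9% and 38% in MII oocytes and 93.8% and 69.4% in the embryo.

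The shares of genes in the lists below stand beside 7.66%, 9.95% and 15.4% of all genes with a called site in GV oocytes, MII oocytes and the embryo. Lists whose genes hold more called sites have more chances of close ones, and the part of this in the shares was not tested. Chromatin modifiers and remodelers held closely spaced sites in 7 of 43 genes with a called site in GV oocytes (16.3%), 9 of 44 in MII oocytes (20.5%) and 16 of 40 in the embryo (40%). These genes had more called sites each, with medians of 4, 5.5 and 7 sites against 2, 2 and 3 over all genes. Tet3, the dioxygenase that acts on the DNA methylation of the paternal genome, had adjacent C at 89.4% and 51.1% in GV oocytes, 91.9% and 61.5% in MII oocytes and 94.3% and 77.5% in the embryo, with 560 to 1705 reads. The difference was called at each stage by Fisher's exact test, with adjusted p of 9.58e-135, 3.08e-102 and 1.74e-15. A pair 5 nt apart in its 3′ UTR was at 40.5% and 56.7%, then 50.6% and 61.8%, then 70% and 61.7%, with 80 and 81 reads in the embryo. Setdb1, a methyltransferase of histone H3, had 64.5% and 17.6% at sites 2 nt apart in GV oocytes, 72.9% and 19.3% in MII oocytes and 93.3% and 32.6% in the embryo. Ep400, the ATPase of a histone exchange complex, had 69% and 11.3% at adjacent C, then 84.3% and 15.2%, then 91.7% and 14.7%. Uhrf1, which guides maintenance of DNA methylation, had 17.3% and 20.5% at adjacent C in GV oocytes, 23.4% and 26.2% in MII oocytes and 16.3% and 52.8% in the embryo. The Uhrf1 pair did not pass the exact test in the oocytes (adjusted p = 0.151 and 0.36) and passed it in the embryo (adjusted p = 5.41e-25).

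Maternal-effect genes held such sites in 4 of 20 genes in GV oocytes (20%), 4 of 22 in MII oocytes (18.2%) and 6 of 22 in the embryo (27.3%), at medians of 3, 3 and 3.5 called sites per gene, with Tet3, Uhrf1 and Brwd1 at all stages, Ago2, the slicer of RNA silencing, in both oocytes, and Dnmt1, Khdc3 and Tle6 in the embryo. Tet3 and Uhrf1 belong to the list of chromatin modifiers as well. The Ago2 pair of adjacent C was at 16.6% and 19.7% in GV oocytes and 11.9% and 26.1% in MII oocytes. Of the genes of translational control and mRNA decay 4 of 21 (19%), 4 of 24 (16.7%) and 3 of 22 (13.6%) held members, at medians of 2, 2.5 and 4.5 called sites per gene, and the embryo share was under that of all genes. Edc4, a scaffold of decapping, had 33.3% and 16.9% at adjacent C in GV oocytes and 48.6% and 18.6% in MII oocytes, called different in both by Fisher's exact test (adjusted p = 3.67e-08 and 2.85e-15). Eif4g3, a scaffold of translation initiation, had 3 sites in a CGG repeat at 16.8%, 35.1% and 19.6% in GV oocytes and 28.7%, 43.5% and 31.7% in MII oocytes. Pabpc4, a poly(A)-binding protein, had 22.8% and 17.9%, then 37.9% and 19.7%.

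Meiotic and cell cycle regulators held members in 0 of 20, 3 of 23 (13%) and 4 of 23 genes (17.4%), the latter shares being near those of all genes, at medians of 1.5, 2 and 4 called sites per gene. Ccnb2, a cyclin of M phase, had sites 6 nt apart at 13.1% and 32% in MII oocytes and 18.9% and 56.8% in the embryo, and in GV oocytes only the 3′ site was listed, at 31.6%. Oocyte-secreted factors, zona genes and oocyte transcription factors held members in 0 of 11, 0 of 13 and 1 of 14 genes (7.14%), the last being Lhx8, at medians of 1, 1 and 3 called sites per gene. Of the genes of laminins, collagens and adhesion 4 of 23 (17.4%), 3 of 22 (13.6%) and 8 of 22 (36.4%) held members, at medians of 4, 6.5 and 4 called sites per gene and means of 6.65, 8.23 and 9.41 against 2.6, 3.07 and 3.9 over all genes. Celsr1, an adhesion receptor of planar polarity, had sites 2 nt apart at 16.5% and 32.8% in GV oocytes and 26.6% and 41.2% in MII oocytes. Of the genes that write, read or relate to RNA m5C 1 of 10 (10%), 2 of 9 (22.2%) and 4 of 11 (36.4%) held members, at medians of 1.5, 3 and 3 called sites per gene, namely Tet3 at all stages, Nsun3 in MII oocytes, and Alyref, Srsf2 and Ybx2 in the embryo.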

How the data were processed

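The deposited lists hold the sites that the authors called in 1 RNA bisulfite library for each stage. By the study's methods, cutadapt and Trimmomatic trimmed the reads, which were aligned with HISAT2 to the converted genome (GRCm38) and with Bowtie2 to the converted transcriptome. Sites were then filtered on base quality, coverage, level, the number of unconverted C per read, signal ratio and genes that resist conversion. For each site the authors gave the count of C and T reads as its coverage, the m5C level as a fraction (here in percent), and a p-value of a binomial test that set the reads against how fully the gene was converted. The labels name polyadenylated RNA and the study's methods name RNA depleted of ribosomal RNA. Total reads per library are not given in the lists, and the 1-cell embryo list may come from another sequencing run than the values in the study's supplement.

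Unconverted reads were the level times the coverage. Consecutive sites up to 100 nt apart were compared by two-sided Fisher's exact test with Benjamini-Hochberg adjustment over all such pairs of a stage, and shared sites between stages likewise over all shared sites (SciPy 1.17.1, threshold 0.05). Reads that cover both sites are not independent, and PCR copies are not separate molecules, so tests and exact 95% intervals cover counting error alone. Annotation was GENCODE M21, sequence the RefSeq copy of GRCm38, and folds were made with ViennaRNA 2.7.2. The scripts were tested on simulated data. Sites named are the longest chains, the genes with most members, the largest and smallest differences, the deepest pairs, the largest changes between stages, and members of gene lists seen at 2 or more stages. Members, lists and tests were chosen with earlier results of these data known. Alternatives were minimum coverage, minimum level, reads thinned to 20 or divided by 5, and neighbours within 1 gene.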

Additional observations from a re-analysis of the deposited data

Results flagged for a closer look

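In some named pairs the ratio of the odds of an unconverted read at the 2 sites differed between stages. This was tested by Zelen's exact test of equal odds ratios, chosen after the data were seen, with adjustment over all pairs at 1 to 10 nt listed at both stages. An odds ratio can change where the difference in points hardly does, so the calls are not counts of changed point differences. The test called 5 of 412 pairs between GV and MII oocytes, 90 of 259 between MII oocytes and the 1-cell embryo and 85 of 195 between GV oocytes and the embryo. Of these 0, 28 and 28 had a difference of the opposite sign at the later stage, whatever its size. The embryo library stands in both of the last comparisons, and the part of its batch was not tested. Pairs named for the size of their difference or of their change between stages were chosen on these values and are left out here. Given as a description are the levels of the 5′ site minus those of the 3′ site in percentage points, and each adjusted p is from the exact test of the odds ratios.

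Pairs with close levels in the oocytes were further apart in the embryo in 3 genes. In Uhrf1 the difference was -3.2 in GV oocytes, -2.83 in MII oocytes and -36.5 in the embryo (exact test, adjusted p = 7.29e-12 from GV oocytes to embryo and 6.52e-12 from MII oocytes to embryo). In Brdt the sites 3 nt apart had 1.93, 3.97 and 15.5 (exact test, adjusted p = 0.00668 and 0.00969). In Myo19 sites 3 nt apart had -0.495 in MII oocytes and 25.3 in the embryo (exact test, adjusted p = 0.00921).

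Other pairs were closer in the embryo. In Gpr137 the difference was 69.3, 57.2 and 14.3 (exact test, adjusted p = 0.000444 and 0.00618), and in Mn1 -51.8, -48.6 and -14.9 (exact test, adjusted p = 0.0149 and 0.0431). The embryo values rest on only 28 reads at each Gpr137 site and 47 at each Mn1 site. In the 3′ UTR pair of Tet3 it was -16.3 in GV oocytes and 8.27 in the embryo (exact test, adjusted p = 0.0105). In Ep400 an adjacent pair had -12.9 in MII oocytes and 5.16 in the embryo (exact test, adjusted p = 0.021). In the Tet3 and Ep400 pairs the order of the sites was thus the opposite in the embryo.

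In a further group the same site was the higher and the difference was larger at the later stage. The Brdt pair 4 nt apart had 40.7, 43 and 79.4 (exact test, adjusted p = 0.000503 and 0.00223), and Setdb1 had 46.8, 53.6 and 60.7 (exact test, adjusted p = 0.000802 and 0.0138). The embryo value of this Brdt pair rests on only 35 and 34 reads. From MII oocytes to embryo Myo19 sites 2 nt apart had -70.3 and -87.1 (exact test, adjusted p = 0.00345), and Golph3 had -15 and -25.4 (exact test, adjusted p = 0.0051). Between the oocyte stages Sall4 had -46.6 and -53.8 (exact test, adjusted p = 0.000163).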

How the results depend on the processing

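Levels of at least 20% left 4.18%, 5.16% and 6.75% of sites with a neighbour at 1 to 10 nt in GV oocytes, MII oocytes and the embryo. Coverage of at least 50 reads gave 7.74% in MII oocytes and 10.5% in the embryo, and reads thinned to 20 per site gave 6.94% and 8.84% there. The order of the 3 stages held under each of these. With reads divided by 5, the pairs called different numbered 110 of 515 (21.4%), 159 of 770 (20.6%) and 131 of 1241 (10.6%). With 20 reads per site they numbered 71 (13.8%), 89 (11.6%) and 200 (16.1%), so the embryo share was then the highest. The median absolute difference was 15 points at each stage with 20 reads per site. At 100 reads or more it was 12.4 points in GV oocytes, 13.1 in MII oocytes and 15 in the embryo. Sites called higher from GV to MII oocytes numbered 5 with reads divided by 5 and 0 with 20 reads, from MII oocytes to embryo 33 and 38, and from GV oocytes to embryo 87 and 62. Sites called lower numbered 0 and 0, 0 and 0, and 0 and 1 in the same order, and from MII oocytes to embryo 8 at 50 reads or more. Fewer reads per site lower the number of calls by construction. No paired analysis was possible because each stage had 1 library.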
